A study of Mus musculus with 2 samples.

Results

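The contactins and their CNTNAP partners were followed at the RNA level in cultured mouse hippocampal neurons with and without tetrodotoxin (TTX). This pufferfish toxin blocks voltage-gated sodium channels. The members are 9 genes, 6 contactins (Cntn1, Cntn2, Cntn3, Cntn4, Cntn5 and Cntn6) and 3 contactin-associated genes (Cntnap1, Cntnap2 and Cntnap4), of 22146 genes with a current symbol on the array. They were taken by gene name among the probes that are not controls, which gave 15 probes. Of these, 14 exceeded background clearly on each array, called measured below, and every member had at least 1 of them. The remaining probe, 1 of 4 for Cntn4, was not well above background on either array.

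The TTX culture was made from embryonic day 16.5 hippocampus of ICR mice and kept in TTX for the last 2 days before RNA was taken at 12 days in vitro. The control culture had the same origin and age, and its source name lists no TTX. Both were grown in medium with 5.5% fetal bovine serum and were given 5 µM Ara-C at 2 days after plating against dividing glia. Its stated TTX dose differs by source, being 2 µM where the design is described and 2 mM in the source name. The comparison asks which transcripts differ when sodium-channel-dependent firing is blocked. Each group had 1 single-colour Agilent array, so no difference below has a replicate check or a p-value, and precision is limited by that number.

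Contactins are cell-surface proteins of the immunoglobulin superfamily, held in the membrane by a lipid (GPI) anchor and built from immunoglobulin and fibronectin type III domains. CNTNAP proteins, also called Caspr proteins, are transmembrane relatives of the neurexins that pair with contactins in the same membrane. In myelinated axons Cntn1 and Cntnap1 form the axonal side of the paranodal junction, and Cntn2 and Cntnap2 hold potassium channels beside it. In neurons without myelin the family serves axon growth, fasciculation and synapse formation.

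The family did not differ as a block. Cntn2 was the member with the largest difference and was about 4-fold higher in the TTX culture. Cntn4 was at least 2-fold lower, Cntn1 and Cntnap4 were about 1.7-fold lower, and Cntn6 was about 1.7-fold higher. Cntn3, Cntn5, Cntnap1 and Cntnap2 differed by less than 1.5-fold. By the 2-fold size rule 1 of the 9 members was higher and 1 was lower, where 2.09% of the 14016 measured genes were higher and 3.40% were lower. At 1.5-fold 2 members were higher and 3 were lower, against 7.66% of all genes higher and 8.64% lower. The median log2 difference (TTX minus control) was -0.24 over the members and 0.01 over all genes. Regardless of sign, the median size of a difference was 0.77 for members and 0.24 for all genes. That 0.77 is the value of Cntn6, read by 1 dim probe, which was at 0.34 with normexp background correction.

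**Figure D1:**
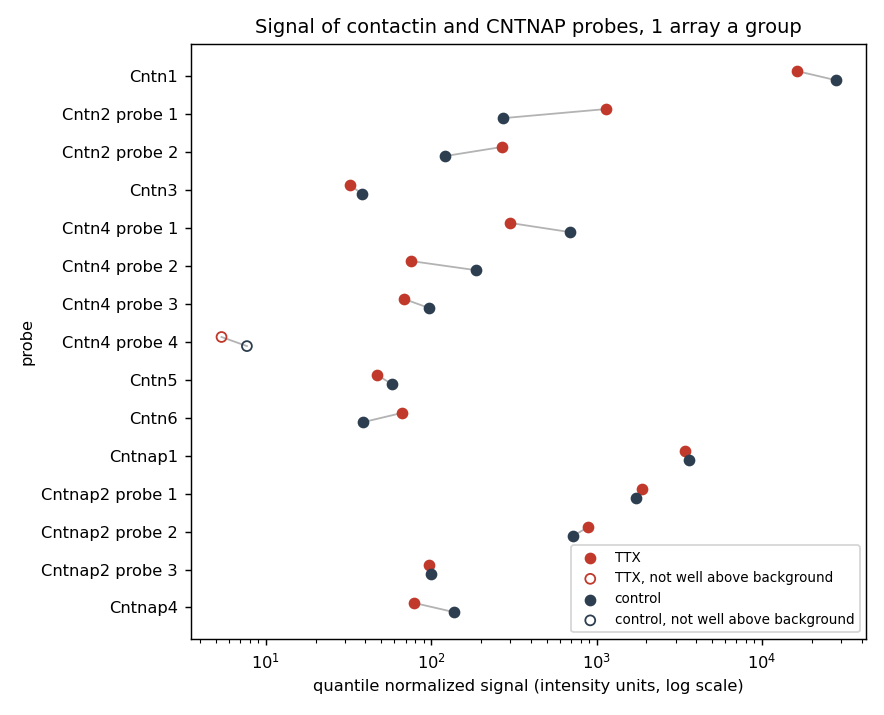
Quantile normalized signal of the 15 member probes (horizontal log axis, intensity units), with the TTX array as red points above the control array as dark points. Filled points were well above background, and open points, seen only at Cntn4 probe 4, were not. Cntn2 and Cntn6 have the TTX point on the right, while Cntn1, Cntnap4 and all Cntn4 probes have it on the left.

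Whole-array values were similar between the groups. On the TTX array 52.2% of the spots that are not controls were well above background, against 54.2% on the control array, and median local background was 60 and 58. Genes that follow neuronal activity had much lower signals in the TTX culture, with all 4 of those listed (Arc, Fos, Npas4 and Bdnf) at least 2-fold lower and a median of -3.07. Arc was at -5.19, Npas4 at -3.53, Fos at -2.61 and Bdnf at -2.37. All 7 neuron markers and all 6 astrocyte markers were measured. Spot noise was read from 261 probes with 10 spots each, and the SD of a spot's log2 difference fell across 5 equal bands of signal, each holding 20% of the measured probes, with 0.31 in band 1 (dimmest), 0.18 in band 2, 0.10 in band 3, 0.08 in band 4 and 0.06 in band 5. It covers only variation within the arrays. In a culture of mixed cells, fewer cells of a type and less RNA per cell cannot be told apart.

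Cntn2 encodes TAG-1, a contactin found on growing axons early in development and later at juxtaparanodes. Its brightest probe lies on chromosome 1 at 134406280 to 134406339 (mm9) and had a signal of 1144 in the TTX culture and 272 in the control culture. That is a log2 difference of 2.07 ± 0.20 (Feature Extraction error), 19.9 times the spot SD at that brightness. Of the 5480 measured probes in the same band of signal, 0.164% were at least as much higher. Only 37 of the 14016 measured genes, Cntn2 included, reached its value.

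The other Cntn2 probe maps to a span of 1269 bases on the minus strand at chr1:134413648-134414916 (mm9), so its 60 bases come from more than 1 exon and match spliced RNA. It is shown because it gives the difference a reading at a separate part of the transcript.

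Cntn2 second probe: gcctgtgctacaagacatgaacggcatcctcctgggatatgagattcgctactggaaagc

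At this second probe the signal was 267 in the TTX culture and 121 in the control culture, a log2 difference of 1.14 ± 0.21 (Feature Extraction error). Both probes were therefore past 2-fold in the same direction. They came from array rows 156 and 376 of 384. The first stood 0.93 above the second, 4.55 times the combined spot SD of 0.20, so the probes did not give 1 size. Among the 4124 genes with several measured probes, 37 had every probe at least 2-fold higher, and 4.03% had a range between probes as wide as that of Cntn2. With the mean of its probes in place of the brightest one, Cntn2 was at 1.61.

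**Figure D2:**
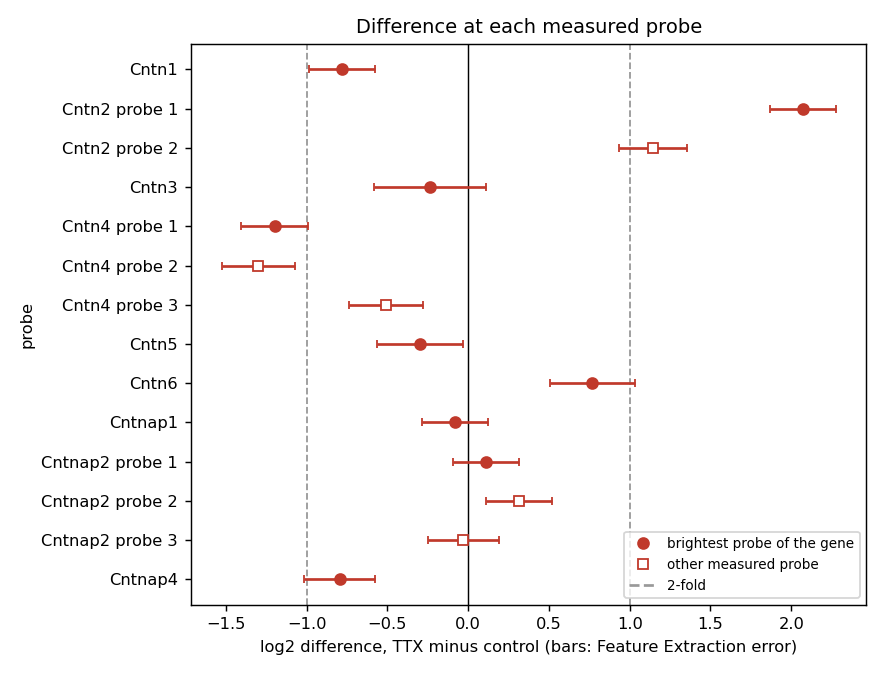
Log2 difference (TTX minus control) at the 14 measured member probes, with bars for the Feature Extraction error and dashed lines at 2-fold. Filled circles are the brightest probe of each gene and open squares its other probes. Both Cntn2 probes lie right of the 2-fold line, 2 of 3 Cntn4 probes lie left of it, and the Cntnap2 probes lie between -0.03 and 0.31.

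Cntn6, also called NB-3, is a contactin that binds the L1-family protein CHL1 and the receptor phosphatase PTPRG. It had a signal of 66.4 in the TTX culture and 39.0 in the control culture, a log2 difference of 0.77 ± 0.26 (Feature Extraction error). Its only probe was in the dimmest band of signals, where the spot SD was 0.31 and 6.84% of probes were at least as much higher. The spot lay in row 97 of the array. The share of such dim probes that were at least 2-fold higher in TTX was 4.77% in its block of 48 rows, 97 to 144. It was 6.85% and 6.88% in the 2 blocks before it and between 1.04% and 2.83% in the 5 blocks after it. Centred within its block of rows and band of signal, Cntn6 kept a difference of 0.73. With normexp background correction it was at 0.34.

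Cntn5, also called NB-2, pairs with Cntnap4 in mouse sensory neurons. Its signal was 47.1 in the TTX culture and 57.9 in the control culture. The log2 difference of -0.30 ± 0.26 (Feature Extraction error) was smaller than the spot SD of 0.31. The Cntn5 and Cntn6 probes are printed together because they are the most alike pair of probes from different members. Capitals mark the 29 bases that are the same in the 58 bases where they overlap without gaps, at chr9:9673844-9673903 on the minus strand for Cntn5 and chr6:104798090-104798149 on the plus strand for Cntn6 (both mm9).

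Cntn5: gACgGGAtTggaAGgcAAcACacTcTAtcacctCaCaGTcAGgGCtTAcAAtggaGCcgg
Cntn6: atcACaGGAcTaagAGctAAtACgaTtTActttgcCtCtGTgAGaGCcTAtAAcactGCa

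No other of the 95 pairs of probes from different members passed 47.5% of overlapping bases.

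Cntn4, also called BIG-2, is a contactin of axons that binds the amyloid precursor protein and PTPRG. It was the member with the lowest difference. At its brightest probe, on chromosome 6 at 106624199 to 106624258 (mm9), the signal was 301 in the TTX culture and 691 in the control culture. The log2 difference was -1.20 ± 0.21 (Feature Extraction error), 11.5 times the spot SD, and 2.01% of probes of like signal were at least as much lower. The second probe is shown because it repeats that size at another part of the gene, 11574 bases away in mm9, at chr6:106612625-106612684 on the plus strand.

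Cntn4 second probe: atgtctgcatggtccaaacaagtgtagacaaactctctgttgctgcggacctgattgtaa

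Its signal was 75.2 in the TTX culture and 185 in the control culture, with a log2 difference of -1.30 ± 0.23 (Feature Extraction error). The first and second probes, both listed for transcript variant 3 and for 1 other RefSeq transcript, thus differed from each other by 0.10, within their combined spot SD of 0.20. The third probe is listed for transcript variant 1 and lies farther downstream, on chromosome 6 at 106647556 to 106647615 (mm9). It had 68.6 in the TTX culture and 97.5 in the control culture, a smaller log2 difference of -0.51 ± 0.23. The gap between probes 2 and 3 was 0.79, or 3.20 times their combined spot SD of 0.25, and a range that wide was found in 5.80% of genes with several probes. The fourth probe, at 106568880 to 106568939 (mm9), was not well above background, with 5.4 in the TTX culture and 7.69 in the control culture, and no fold is given for it. The 3 measured probes lay in rows 153, 241 and 315 of the array, and the mean over them was still just past 2-fold lower.

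Cntn1, also called F3 or contactin, is the partner of Cntnap1 at the paranode and a ligand of Notch1 and the receptor phosphatase PTPRZ. Its probe lies on chromosome 15 at 92170470 to 92170529 (mm9). The signal was 16223 in the TTX culture and 27894 in the control culture. The log2 difference of -0.78 ± 0.20 (Feature Extraction error) corresponds to 1.72-fold and was 12.5 times the spot SD in the brightest band of signals, where 2.66% of probes were at least as much lower. The spread of the processing settings for Cntn1, from -0.93 to -0.78, stayed short of 2-fold.

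Cntn3, also called PANG or BIG-1, was near background. It had 32.4 in the TTX culture and 38.2 in the control culture. The log2 difference of -0.24 ± 0.35 (Feature Extraction error) was within both error measures.

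**Figure D3:**
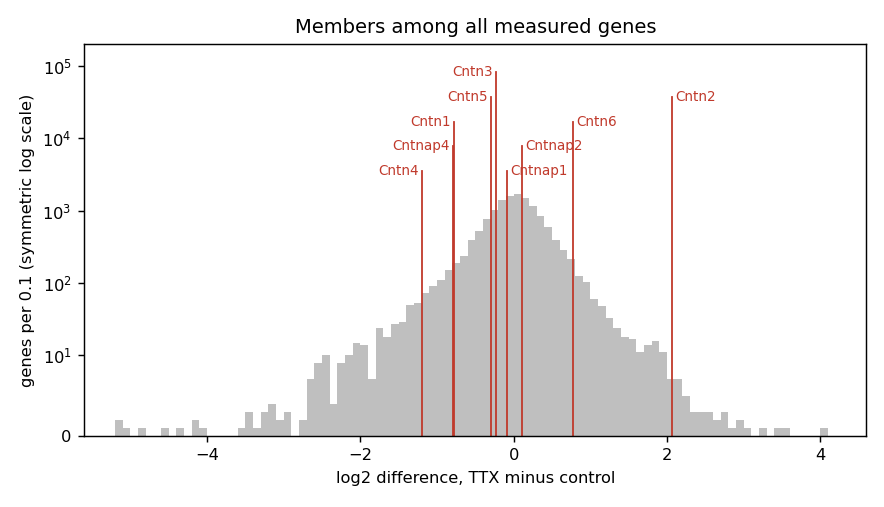
Distribution of log2 differences (TTX minus control) over the 14016 measured genes in bins of 0.1 (grey bars, symmetric log axis), with a red line at each member's brightest probe; line heights only separate the labels. Cntn2 lies in the right tail at 2.07 and Cntn4 on the left flank at -1.20, while 4 members lie within 1.5-fold of 0 where 83.7% of all genes lie.

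Among the CNTNAP genes, Cntnap1 and Cntnap2 were close to level. Cntnap1, the paranodal Caspr protein, had 3435 in the TTX culture and 3635 in the control culture, a log2 difference of -0.08 ± 0.20 (Feature Extraction error). It was therefore not lower in step with its paranodal partner Cntn1, although the difference between the 2 genes was not tested.

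Cntnap2, the juxtaparanodal partner of Cntn2, was read by 3 probes on chromosome 6. At the brightest, at 47251040 to 47251099 (mm9), it had 1879 in the TTX culture and 1738 in the control culture (log2 difference 0.11 ± 0.20, Feature Extraction error). The second probe, 1964 bases upstream and listed for both transcript variants, had 892 in the TTX culture and 717 in the control culture (0.31 ± 0.20). The third lies 251799 bases upstream of the brightest, is listed for variant 1 alone among RefSeq transcripts, and had 97.2 in the TTX culture and 99.2 in the control culture (-0.03 ± 0.22). The probes thus straddled 0, and the sign at the brightest probe changed under 3 of 9 processing alternatives, with values from -0.07 to 0.13. While Cntn2 was 4.20-fold higher at its brightest probe, Cntnap2 was 1.08-fold higher.

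Cntnap4 is a presynaptic CNTNAP protein described in mouse inhibitory interneurons. Its probe on chromosome 8 at 115406546 to 115406605 (mm9) had 78.9 in the TTX culture and 137 in the control culture, a log2 difference of -0.80 ± 0.22 (Feature Extraction error). That was 4.54 times the spot SD, and 6.04% of probes of like signal were at least as much lower. With normexp background correction Cntnap4 was at -0.57, just short of 1.5-fold. Of 11 interneuron markers, all measured, 7 were lower and 4 higher in TTX, where 51.1% of all measured genes were above 0. The markers' median was -0.11, with summed signals of 66534 in the TTX culture and 88354 in the control culture. This median was -0.26 with 75th percentile scaling and with no normalization, and -0.32 with spike-in scaling. Lhx6, among the 4 higher, was below 0 in each of those settings. Npy was lowest, with 7239 in the TTX culture and 21915 in the control culture, and made up most of the gap in summed signal. Vip was at -0.98 and Gad1 at -0.70. Calb2 was highest at 2.27 and Dlx1 next at 0.998, while Gad2 (-0.11) and Lhx6 (0.09) were near level. The part of interneurons in the Cntnap4 difference was not tested.

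**Figure D4:**
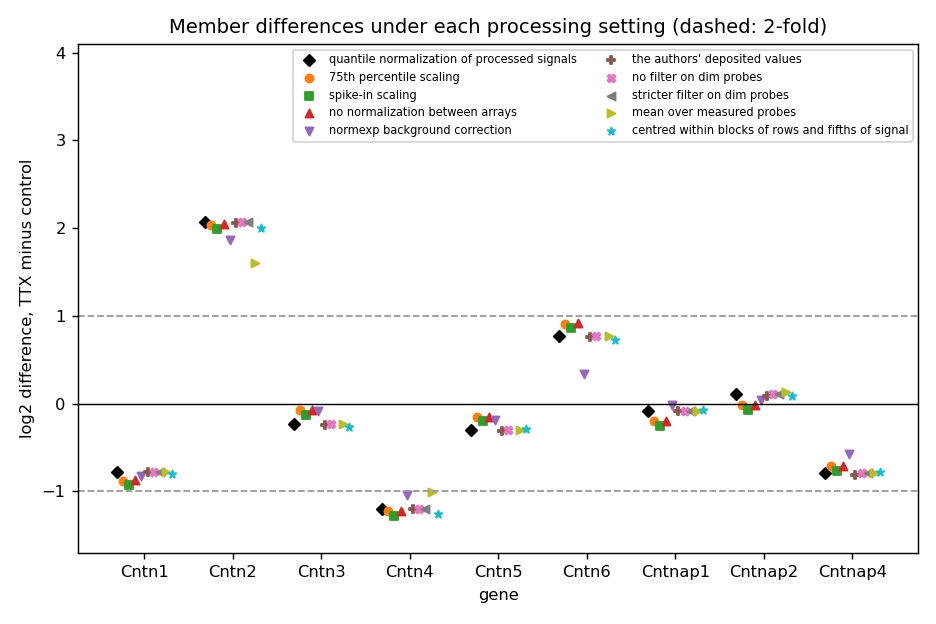
Log2 difference (TTX minus control) of each member at 10 processing settings, the black diamond being quantile normalization of processed signals; dashed lines mark 2-fold. Cntn2 stays between 1.61 and 2.07 and Cntn4 between -1.28 and the 2-fold line at every setting, Cntnap2 lies on both sides of 0, and Cntn6 drops to 0.34 with normexp background correction.

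Lists of relatives and partners held 31 genes, of which 27 were measured. None of these was at least 2-fold higher and 1 was at least 2-fold lower, shares near the 2.09% and 3.40% of all measured genes, and their median was -0.02. With 75th percentile scaling or no normalization 1 of them, Cntnap5a, was just past 2-fold higher. The gene past 2-fold lower was Kcnab2, a beta subunit of Kv1 potassium channels, with 75.5 in the TTX culture and 189 in the control culture (log2 difference -1.32, or -0.89 with normexp background correction).

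Of the CNTNAP genes that are not members, Cntnap5a was measured, with 58.4 in the TTX culture and 32.5 in the control culture (log2 difference 0.85). This was a dim probe in row 94, and its value depended on the processing. It was 0.41 with normexp background correction, 0.95 with spike-in scaling, 1.001 with 75th percentile scaling and 1.005 with no normalization. Cntnap3, Cntnap5b and Cntnap5c were not well above background on either array.

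The L1 family binds contactins in the same or the opposite membrane. Chl1, the CHL1 partner of Cntn6, was at 0.71 and L1cam at 0.53, whereas Nrcam was at -0.51 and Nfasc, the neurofascin gene whose glial form meets Cntn1 and Cntnap1 at the paranode, was at -0.04. Chl1 had 21528 in the TTX culture and 13188 in the control culture. The list was thus divided, with 2 of 4 on each side of 0, although Nfasc was at 0.04 with normexp background correction.

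Of the 8 receptors and ligands, 7 were measured and none passed 2-fold. The receptor phosphatase Ptprz1 was at 0.39 and Ptprg at -0.46, and App, whose protein binds Cntn4, was at -0.28. Notch1 was at 0.22 and the matrix protein Tnr at 0.05. The list median of 0.04 changed sign with spike-in scaling (-0.05), with normexp background correction (-0.01) and with no filter on dim probes (-0.005). Tnc was not well above background on either array.

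The 6 ankyrin, spectrin and band 4.1 genes were all measured and lay between -0.16 and 0.31 at their brightest probes. The 3 probes of Sptbn1 ranged from 0.17 to 0.68, and their mean was 0.44. Ank3, the ankyrin of the axon initial segment and node, was at 0.31, Sptan1 at 0.29, and Epb41l3, which links CNTNAP proteins to the cytoskeleton, at -0.06. The median of 0.07 became -0.08 with spike-in scaling, and was also below 0 with 75th percentile scaling and with no normalization (both -0.03).

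The potassium channel complex that Cntn2 and Cntnap2 hold at juxtaparanodes had a median of -0.20. Of its 9 genes 7 were lower in TTX, where 51.1% of all measured genes were above 0. Besides Kcnab2, the channel subunits Kcna1 (-0.58) and Kcna2 (-0.47) had the largest negative values. Kcnab1 was at -0.20, and the channel subunit Kcna4 was level (-0.01, or 0.01 with normexp background correction). The scaffolds Dlg4 (-0.24) and Dlg2 (-0.12) were slightly below 0. At their brightest probes Dlg1 (0.31) and the LGI1 receptor Adam22 (0.21) were above it. The probes of Dlg1 ranged from -0.29 to 0.31 and those of Adam22 from -0.31 to 0.21. With probes averaged, Dlg1 was at -0.01 and Adam22 at -0.05. The count of 7 lower genes thus depended on the probe chosen and, through Kcna4, on the processing. The higher signal of Cntn2 had no counterpart of like size in Cntnap2 or in this list.

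**Figure D5:**
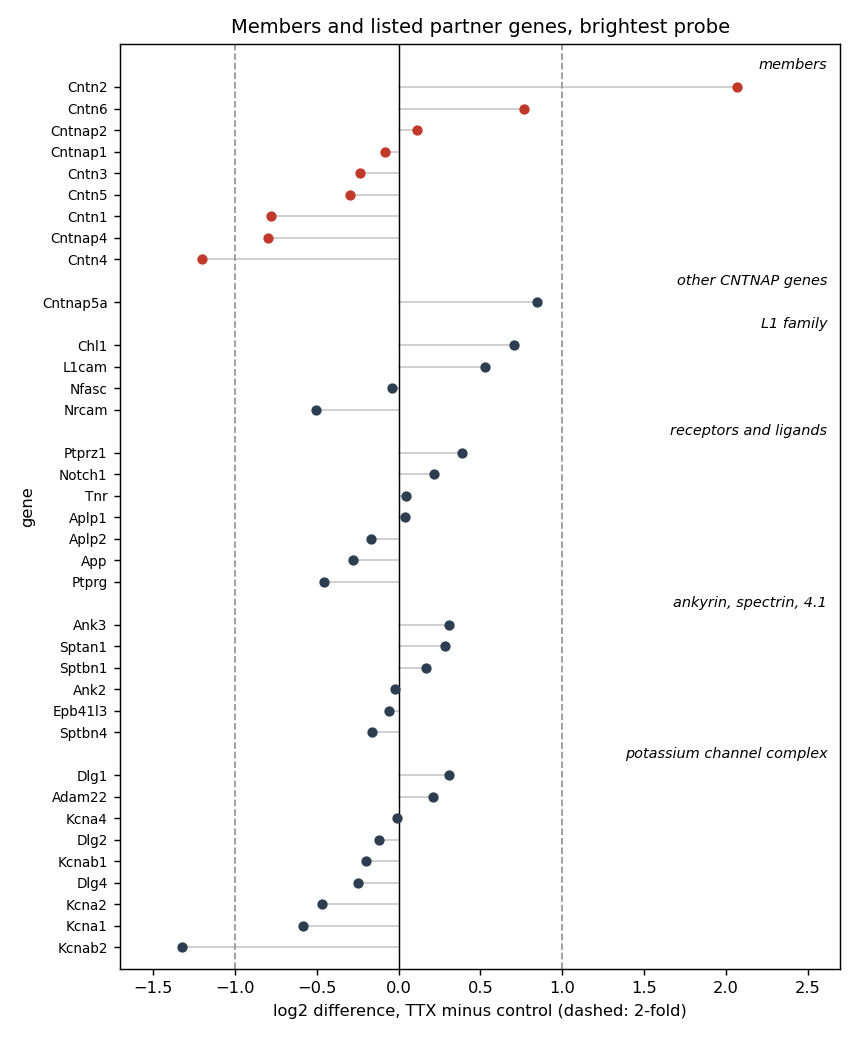
Log2 difference (TTX minus control) at the brightest probe for the 9 members (red) and the 27 measured partner genes (dark), ordered within each group from highest to lowest, with dashed lines at 2-fold. With quantile normalization, as plotted, only Cntn2, Cntn4 and Kcnab2 lie beyond the 2-fold lines.

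Myelin and oligodendrocyte genes were looked at because this family is best known from myelinated axons. Of 10 markers 5 were measured, with summed signals of 2417 in the TTX culture and 2051 in the control culture. Mbp was level at its brightest probe (0.01), while its other measured probe was at -0.32, and Olig1 was at 0.78. Sox10, Olig2, Pdgfra and Mobp were not well above background on either array, and Mag was above it on the control array only. The astrocyte list had a median of 0.47, with 5 of 6 markers higher and none past 2-fold, and Gfap was highest at 0.78. Neuron markers moved by as much as several members. The 7 general ones lay between -0.81 (Rbfox3) and 0.47 (Tubb3), with Nefl at -0.61. Their median was 0.07, and it was below 0 with spike-in scaling (-0.09), 75th percentile scaling and no normalization (both -0.04). The 6 markers of excitatory neurons had a median of 0.67 and summed signals of 45983 in the TTX culture and 39765 in the control culture. Of these Prox1 (1.02) and Tbr1 (0.97) were highest and Neurod6 (-1.10) was lowest. Prox1 was short of 2-fold with spike-in scaling (0.92), normexp (0.95) and centring within row blocks and signal bands (0.96). It was also short of it with 75th percentile scaling (0.97) and no normalization (0.98). Tbr1 was past 2-fold when its probes were averaged (1.16). What these cell types contribute to the members' differences was not tested.

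RefSeq promoter windows (GRCm38.p6) were given for 7 of the 9 members, 12 windows in all, and none was given for Cntnap1 and Cntnap4. The 250 bases before the transcript start are printed for the 2 members past 2-fold, since they differ in opposite directions. For Cntn4, which has 2 overlapping windows, the downstream one is shown. Both strands were searched for the cAMP response element TGACGTCA, its core TGACG (which lies inside it), the AP-1 motif TGANTCA, the E-box CACGTG, the TATA box letters TATAAA, the EGR motif GCGTGGGCG, and the CArG box and MEF2 motif by name, and capitals mark matches.

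Cntn2 at chr1:132542941-132543190, minus strand: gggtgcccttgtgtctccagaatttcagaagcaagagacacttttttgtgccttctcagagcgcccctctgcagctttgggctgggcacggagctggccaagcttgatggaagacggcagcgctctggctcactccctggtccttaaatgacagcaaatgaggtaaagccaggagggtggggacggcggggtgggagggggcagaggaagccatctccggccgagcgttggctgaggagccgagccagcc
Cntn4 at chr6:106118692-106118941, plus strand: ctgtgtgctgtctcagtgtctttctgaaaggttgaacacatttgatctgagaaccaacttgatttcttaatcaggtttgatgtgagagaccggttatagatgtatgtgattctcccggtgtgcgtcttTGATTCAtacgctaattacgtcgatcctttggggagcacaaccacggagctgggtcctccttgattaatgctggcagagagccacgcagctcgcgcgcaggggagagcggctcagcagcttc

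The Cntn2 window held none of these letters and was 61.2% G and C, against a median of 52.4% over all 32851 windows. The Cntn4 window shown held 1 AP-1 match that begins at position -122 from the start, a motif present in 6.75% of all windows. The upstream Cntn4 window held no match to any of the motifs. Among the other members, TGACG was found in 1 window of Cntn6 and 1 of Cntn1 (17.8% of all windows hold it), a CArG box in another window of Cntn1 (1.47%) and TATAAA in 1 window of Cntn1 (12.4%). The other motifs were found in no member window, and they are present in 1.55% (TGACGTCA), 6.02% (CACGTG), 0.536% (GCGTGGGCG) and 2.92% (MEF2) of all windows.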

How the data were processed

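Cy3-labelled RNA of 1 TTX and 1 control culture was read on Agilent 8x60K mouse arrays. The deposited scanner files give spot intensity processed by Feature Extraction with spatial and multiplicative detrending on and background correction off, per the file headers (version 10.7.1.1, 9.5.1.1 per the submitters' processing notes). The series' design text names quantile normalization, which was followed here: processed signals of the spots that are neither controls nor outliers (291 of 59305 spots left out, none of a member) were quantile normalized and put on a log2 scale. Measured probes had a share of 0.5 or more of spots flagged as well above background, on each array separately, and the brightest measured probe stood for its gene. No member spot was saturated. Probe annotation and coordinates are those of the files (mm9), and symbols were updated through RefSeq of GRCm38.p6 (30847 of 55681 probes matched). The files pair no exon or UTR annotation with the probes. Of 2 probes no spot was kept.

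With 1 array a group nothing was tested, and only size rules (2-fold, 1.5-fold) were used. The Feature Extraction error combines both spots' errors on the log2 scale. All members are named with every probe, and from each pathway list the genes at least 2-fold different and the 2 with the largest differences; marker genes are named as examples, chosen after their values were seen. The members and lists were chosen with earlier results of these data known. The steps were tested on simulated data, with spot noise as the only variation added. Differences were set only in genes with a probe above the dimmest band, so Cntn3, Cntn5 and Cntn6 were not covered. Alternatives were 75th percentile, spike-in or no scaling, normexp (offset 50, limma 3.58.1), the authors' deposited values, dropping the filter on dim probes or raising it to percentile 25 of signal, averaging the probes of a gene, centring within blocks of 48 rows and 5 bands of signal, and other size rules. Normexp started from mean spot signals and median local background, not from the processed signals. Python 3.11.15 and R 4.3.3 were used.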

Additional observations from a re-analysis of the deposited data

How the results depend on the processing

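Cntn2 stayed at least 2-fold higher and Cntn4 at least 2-fold lower under all 9 alternatives to the normalization, background correction, filter and probe summary, and no other member passed 2-fold under any of them. At a 1.5-fold rule 2 members were higher and 3 lower with quantile normalization of processed signals. Of these, Cntn6 and Cntnap4 fell short of 1.5-fold with normexp background correction. At a 3-fold rule 1 was higher and 0 were lower. The members' median of -0.24 was -0.083 with normexp background correction, which adds an offset that shrinks the differences of dim probes. How much of that shift came from the offset was not tested. With the stricter filter, which drops Cntn3, Cntn5 and Cntn6, the median was -0.43. Of 78 values of single members under the alternatives, 62 moved by less than the spot SD and 16 by more. The 62 include values that could not move. Either filter setting left the brightest probe of each member, Cntn2 and Cntn4 included, as it was. Averaging probes left genes with 1 measured probe unchanged. Spike-in scaling shifted the median of all genes by -0.10 on the log2 scale. With it Cntn1 was at -0.93, Cntn2 at 1.99, Cntnap1 at -0.25 and Cntnap2 at -0.07. Cntnap2 was also below 0 with 75th percentile scaling (-0.02) and with no normalization (-0.02), and the cause was not tested. No paired analysis was possible because each group has 1 array, and no replicate could be left out. Signal over background limits Cntn3, Cntn5 and Cntn6, whose probes are in the dimmest 20% of signals. Over all genes, 293 were at least 2-fold higher and 476 lower, against 1073 and 1211 at 1.5-fold, 94 and 163 at 3-fold, 147 and 301 with normexp, and 1062 and 1368 with no filter on dim probes.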
